A study of Mus musculus with 11 samples.

Results

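Cytochrome P450 enzymes and the enzymes that conjugate small molecules to glucuronic acid, glutathione or sulfate were followed across cells sorted from the mouse duodenum. The members were all genes with symbols beginning Cyp, Ugt, Gsta, Gstk, Gstm, Gsto, Gstp, Gstt or Sult and a number, without pseudogenes ending in -ps, that had at least 15 counts in total over the 11 libraries. They were 91 of the 38283 genes in the table, comprising 49 Cyp, 15 Ugt, 19 Gst and 8 Sult genes. Another 83 genes with such names had fewer counts, 55 of them none at all. The rule used names and the total over all libraries, and no difference between groups. Duodenal epithelium had been digested to single cells and sorted by fluorescence. In mice of the strain Neurod1-cre-eYFP, in which Cre recombinase from the Neurod1 gene switches on a yellow fluorescent protein in cells that express or have expressed this enteroendocrine transcription factor, there were 3 libraries of NeuroD1 positive cells (NeuroD1_positive_6360, NeuroD1_positive_6361 and NeuroD1_positive_6362) and 3 of NeuroD1 negative cells (NeuroD1_negative_6360, NeuroD1_negative_6361 and NeuroD1_negative_6362). In mice of the strain GluVenus, in which the fluorescent protein Venus reports the proglucagon gene, there were 3 libraries of Glu positive cells (Glu_positive_5254, Glu_positive_5160 and Glu_positive_4665) and 2 of Glu negative cells (Glu_negative_5254 and Glu_negative_4665). Values of single libraries are given in this order. The mice had free access to standard chow, and neither strain was treated. For age and sex, no value is given in the sources used here. Whether each label number stands for its own animal is not said in the labels. The p-values therefore rest on the spread between these particular libraries, which may be technical.

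The intestinal epithelium is, after the liver, a main site of drug and toxin metabolism. P450 enzymes oxidise steroids, fatty acids, drugs and food-derived compounds. Uridine diphosphate glucuronosyltransferases (Ugt), glutathione S-transferases (Gst) and sulfotransferases (Sult) then attach polar groups that make products easier to export. Absorptive enterocytes are the best known site of these enzymes in the gut. Enteroendocrine cells are the rare hormone-producing cells of the same lining.

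Libraries held 2279595 to 5722381 counts. The sort was followed by its markers: all 7 enteroendocrine markers (among them Chga and Scg2) passed the test as higher in positive than in negative cells of both strains, with summed levels of 40755 to 59403 CPM in NeuroD1 positive against 1949 to 2337 CPM in NeuroD1 negative libraries, and of 10091 to 28305 CPM in Glu positive against 1002 to 1197 CPM in Glu negative libraries. Levels are CPM, counts relative to each library's total after TMM scaling, and levels of single genes are compared with each other as CPM per kilobase of exon. Sums over several genes, and shares of such sums, are in CPM without scaling by exon length, so longer genes weigh more in them. The negative cells were a mixture. Summed over 7 markers, immune genes reached 17421 to 37365 CPM in NeuroD1 negative and 14155 to 89572 CPM in Glu negative libraries, against 737 to 1543 CPM in NeuroD1 positive and 1784 to 5189 CPM in Glu positive libraries. The 7 enterocyte markers summed to 257 to 438 CPM in NeuroD1 positive against 2325 to 6863 CPM in NeuroD1 negative libraries, and to 367 to 681 CPM in Glu positive against 1781 to 2106 CPM in Glu negative libraries. All 7 fell in NeuroD1 positive cells and 4 of 7 in Glu positive cells, each against the negative cells of the strain. All 5 goblet, all 4 Paneth and 3 of 5 tuft markers also fell in NeuroD1 positive cells, against 1 goblet and 2 tuft markers in Glu positive cells, where the Paneth markers did not pass. In such bulk libraries fewer cells of a type and less RNA per cell cannot be told apart, and the part of these markers in the results below was not tested. NeuroD1_negative_6360 stood apart from its replicates. The mitochondrial ribosomal genes were listed at 0 there and in all Glu libraries, and took 27.5% to 33.9% of counts in the other 5 NeuroD1 libraries. Strain, reporter and any difference in preparation between strains cannot be told apart in comparisons across strains.

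Promoter sequence is shown for 8 members: Cyp2j5 and Cyp4b1, the members that passed as higher in both strains, Sult1d1 and Gstm1, which passed in opposite directions in GluVenus mice, and 4 alternative first exons of the Ugt1 locus, whose shares of the locus differed between groups. Each sequence is the 150 bases before the RefSeq transcription start in GRCm38.p6, 5′ to 3′ on the strand of the gene. Of 91 members, 78 were matched in the RefSeq promoter table. The windows lie at chr4:96664120-96664269, minus strand for Cyp2j5, at chr4:115647722-115647871, minus strand for Cyp4b1, at chr5:87569007-87569156, minus strand for Sult1d1 and at chr3:108017974-108018123, minus strand for Gstm1. Capitals mark matches on either strand to GCGTG, the core of the xenobiotic response element bound by the aryl hydrocarbon receptor, or to the letters GTTAAT, any 1 base and ATT, part of the site of the hepatocyte nuclear factor HNF1.
Cyp2j5: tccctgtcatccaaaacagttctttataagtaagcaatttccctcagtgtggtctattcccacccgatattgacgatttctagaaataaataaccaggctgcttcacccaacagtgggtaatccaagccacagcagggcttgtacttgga
Cyp4b1: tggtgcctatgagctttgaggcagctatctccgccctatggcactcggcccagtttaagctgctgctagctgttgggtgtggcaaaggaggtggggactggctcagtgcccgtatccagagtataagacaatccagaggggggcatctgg
Sult1d1: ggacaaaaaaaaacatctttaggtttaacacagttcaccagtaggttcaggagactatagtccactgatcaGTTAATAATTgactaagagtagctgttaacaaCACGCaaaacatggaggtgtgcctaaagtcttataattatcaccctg
Gstm1: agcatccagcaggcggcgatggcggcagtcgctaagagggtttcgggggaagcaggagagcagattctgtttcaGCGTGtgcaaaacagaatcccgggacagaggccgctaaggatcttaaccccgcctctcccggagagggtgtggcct
The windows of the Ugt1 first exons lie at chr1:88070629-88070778, plus strand for Ugt1a9, at chr1:88134659-88134808, plus strand for Ugt1a6a, at chr1:88200461-88200610, plus strand for Ugt1a2 and at chr1:88211809-88211958, plus strand for Ugt1a1.
Ugt1a9: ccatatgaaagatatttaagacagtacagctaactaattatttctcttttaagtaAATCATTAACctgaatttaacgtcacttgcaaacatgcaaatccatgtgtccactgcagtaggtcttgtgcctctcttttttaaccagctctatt
Ugt1a6a: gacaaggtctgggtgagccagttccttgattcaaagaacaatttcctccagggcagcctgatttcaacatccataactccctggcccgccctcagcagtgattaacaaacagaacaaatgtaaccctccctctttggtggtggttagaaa
Ugt1a2: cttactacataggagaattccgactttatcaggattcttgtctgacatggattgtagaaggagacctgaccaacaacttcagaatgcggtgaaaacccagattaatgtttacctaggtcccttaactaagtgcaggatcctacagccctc
Ugt1a1: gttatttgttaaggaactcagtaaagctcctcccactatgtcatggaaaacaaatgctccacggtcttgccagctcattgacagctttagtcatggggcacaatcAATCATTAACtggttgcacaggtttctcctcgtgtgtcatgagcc
Over windows of 300 bases (250 before and 50 after the start), GCGTG was found in 23 of 78 members (29.5%) and in 32.5% of all 27025 RefSeq windows. TGACNNNGC, the core of the antioxidant response element, was found in 6 members (7.69%) and in 12.5% of all windows. The HNF1 letters were found in 5 members (6.41%), namely Cyp4a32, Cyp4f40, Sult1d1, Ugt1a1 and Ugt1a9, and in 0.437% of all windows. In the stretches shown no match overlaps another, and a match is a description of sequence only.

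The summed level of all 91 members did not separate the groups. It was 2197 ± 219 CPM in NeuroD1 positive and 3309 ± 1279 CPM in NeuroD1 negative libraries (SD, n = 3 each), and 2169 ± 324 CPM in Glu positive (SD, n = 3) and 2101 CPM in Glu negative libraries (2519 and 1682). What differed was the make-up. Per kilobase of exon, the most abundant members of NeuroD1 positive cells were Gstt1 (157 CPM per kb), Gsta4 (70.9) and Gsto1 (61.0), and those of NeuroD1 negative cells were Gstm3 (363), Gsta1 (298) and Gsta4 (152). In Glu positive cells they were Ugt2b34 (89.6), Gsto1 (68.2) and Cyp2c55 (59.6), and in Glu negative cells Gstm3 (258), Gsta1 (138) and Gstm1 (81.6). Both negative populations were thus led by Gstm3 and Gsta1. Each of these genes came just after the first 3 in 1 positive population: Gsta1 was number 4 in NeuroD1 positive cells (49.1) and Gstm3 number 4 in Glu positive cells (55.9).

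Counts were tested with edgeR's quasi-likelihood test over all genes that had enough counts, and a gene was said to have risen or fallen at a Benjamini-Hochberg adjusted p under 0.05 over all 14332 tested genes. Of 91 members, 71 were tested. The other 20 peaked at 0.884 to 11.1 CPM in their highest library. In NeuroD1 positive against NeuroD1 negative cells, 9 of 71 members rose (12.7%, against 6.57% of all genes tested) and 16 fell (22.5%, against 7.61%, or 14.2% of all genes in either direction). Their median log2 fold change was -0.95, against 0.02 over all genes. In Glu positive against Glu negative cells, 3 of 71 rose (4.23%, against 4.22% of all genes) and 6 fell (8.45%, against 2.41%, or 6.64% of all genes in either direction), with a median of -0.23 against 0.12. That Glu median was 0.19 without Glu_negative_5254, against 0.20 over all genes, and -0.60 with library totals, against -0.19. Scaling by library totals gave 6 higher and 24 lower in the NeuroD1 comparison, where the median was then -1.38, against -0.28 over all genes. DESeq2 called 10 higher and 24 lower in the NeuroD1 comparison and 4 higher and 7 lower in the Glu comparison. The shares of all genes called under these and the other settings below are not given here. Such counts therefore show only how the number of members called moved.

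These counts moved with single libraries. In the NeuroD1 comparison 4 members passed as higher without NeuroD1_negative_6360, and 5 without NeuroD1_positive_6361, NeuroD1_negative_6361 or NeuroD1_negative_6362. The count of lower members was 9 without NeuroD1_negative_6362 and 10 without NeuroD1_positive_6360. In the Glu comparison the count was 1 higher and 0 lower without Glu_negative_5254, 1 higher and 2 lower without Glu_negative_4665, and 5 higher and 4 lower without Glu_positive_5160. Either Glu negative library left out leaves that group with 1 library, whose spread is then assumed to be that of the other groups. No member that had passed in either comparison changed sign under any alternative.

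Cyp2j5 and Cyp4b1 rose in both strains, while Cyp3a25, Gsta1, Gstm1 and Gstm3 fell in both. No member passed in opposite directions, and 43 of 71 passed in neither strain. The shares of all tested genes with these patterns are not known here, so the counts do not show how unusual they are. The remaining members that rose in NeuroD1 positive cells, Cyp2f2, Cyp2j9, Gstk1, Gstt1, Ugt1a6a, Ugt1a9 and Ugt8a, did not pass in the Glu comparison, and by edgeR none of them passed the test of the difference between strains.

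**Figure D1:**
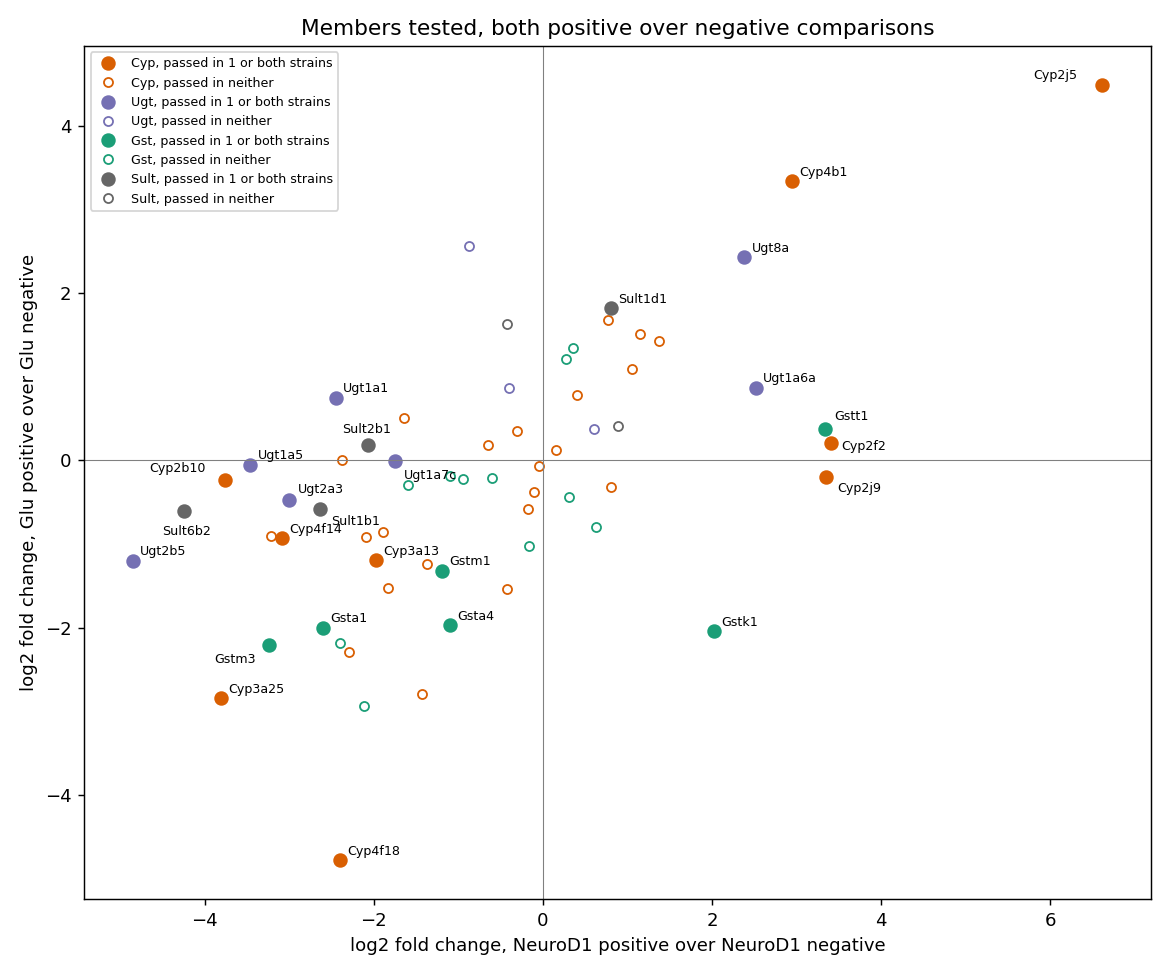
Log2 fold change of positive over negative cells in the Neurod1-cre-eYFP strain (x axis) and the GluVenus strain (y axis) for 64 tested members, coloured by superfamily and filled where the member passed in 1 or both strains. The 7 members with 3 or fewer counts in any group are left out. Cyp2j5 lies at 6.61 and 4.49, Cyp4b1 at 2.95 and 3.34, and Gstk1 at 2.02 and -2.04.

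Among the P450 genes Cyp2j5 showed the clearest difference. It encodes an epoxygenase of arachidonic acid, known from mouse kidney and liver, and lies on chromosome 4 (chr4:96628773-96664154, minus strand, GRCm38). Its level was 76.4, 79.0 and 58.1 CPM in NeuroD1 positive libraries, against 0.705, 0 and 1.31 CPM in NeuroD1 negative libraries. It was 103, 30.0 and 129 CPM in Glu positive libraries, against 2.87 and 4.76 CPM in Glu negative libraries. Every positive library was thus above every negative library in both strains. The log2 fold change was 6.61 ± 0.73 (SE) in NeuroD1 positive over NeuroD1 negative cells, or 97.7-fold (edgeR, adjusted p = 8.21e-06), and 4.49 ± 0.71 in Glu positive over Glu negative cells, or 22.5-fold (adjusted p = 0.000776). It passed in both under every alternative, with 6.23 to 7.11 in the NeuroD1 comparison and 4.10 to 4.95 in the Glu comparison. Between the positive populations the log2 fold change of NeuroD1 positive over Glu positive was -0.30 ± 0.51 and did not pass (adjusted p = 0.755), and it was 0.10 without Glu_positive_4665. Between NeuroD1 negative and Glu negative cells it was -2.42 ± 0.77 (adjusted p = 0.259).

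Other genes of the Cyp2j group were less marked. Cyp2j9, a P450 described in mouse brain, was at 2.2, 29.0 and 8.26 CPM in NeuroD1 positive libraries, against 0.705, 2.01 and 1.31 CPM in NeuroD1 negative libraries. Most of its mean came from 1 library, and its log2 fold change of 3.35 ± 1.02 (adjusted p = 0.0329) was 2.06 without NeuroD1_positive_6361 and did not pass there or without any 1 of the NeuroD1 negative libraries. In the Glu libraries, where it did not pass, it was at 2.12, 9.30 and 12.1 CPM in positive and 14.8 and 3.50 CPM in negative cells. Cyp2j6, singled out here after its values were seen, was at 82.6, 144 and 136 CPM in NeuroD1 positive and 53.6, 39.7 and 70.7 CPM in NeuroD1 negative libraries, and did not pass (log2 fold change 1.15 ± 0.39, adjusted p = 0.0542).

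Cyp4b1, known from lung as the P450 that activates furan toxins, was at 123, 106 and 94.7 CPM in NeuroD1 positive and at 11.6, 1.51 and 28.8 CPM in NeuroD1 negative libraries. It was at 173, 99.9 and 103 CPM in Glu positive and at 14.2 and 10.5 CPM in Glu negative libraries. The positive libraries of both strains lay between 94.7 and 173 CPM and above all negative libraries. The log2 fold change was 2.95 ± 0.60 (adjusted p = 0.00233) in the NeuroD1 comparison and 3.34 ± 0.71 (adjusted p = 0.00782) in the Glu comparison. The Glu call was lost without either Glu negative library (adjusted p up to 0.133, log2 fold change at least 2.97).

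Cyp2f2, known from lung club cells for the oxidation of naphthalene, rested largely on a single library. It was at 2.57, 43.5 and 4.03 CPM in NeuroD1 positive libraries and at 0.705, 2.01 and 2.18 CPM in NeuroD1 negative libraries, with a log2 fold change of 3.40 ± 1.11 (adjusted p = 0.0467). This call was lost without any 1 of the NeuroD1 negative libraries, with RLE size factors and with library totals, and without NeuroD1_positive_6361 or NeuroD1_positive_6362 the gene had too few counts to be tested.

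Of the P450 genes that fell, Cyp4f14, which oxidises leukotrienes and vitamin E side chains at their ends, was at 33.8, 13.7 and 24.6 CPM in NeuroD1 positive against 250, 92.9 and 270 CPM in NeuroD1 negative libraries. Its log2 fold change was -3.09 ± 0.44 (adjusted p = 0.00011), and it passed under every alternative. In GluVenus mice it was at 44.6, 57.9 and 44.3 CPM in positive and 105 and 81.2 CPM in negative libraries, without overlap, but did not pass (log2 fold change -0.93 ± 0.45, adjusted p = 0.222). Cyp4f18, which oxidises leukotrienes in mouse neutrophils, fell in Glu positive cells. It had enough counts for the test only through its Glu negative libraries, the group where it was high. In those libraries, Glu_negative_5254 and Glu_negative_4665, the immune markers summed to 14155 and 89572 CPM, and their part in this difference was not tested. Cyp4f18 was at 0.607, 0.689 and 0.142 CPM in Glu positive and at 17.2 and 8.26 CPM in Glu negative libraries. Its log2 fold change was -4.78 ± 1.20 (edgeR, adjusted p = 0.0227). This call was lost without either Glu negative library or without Glu_positive_4665 (adjusted p up to 0.192).

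The Cyp3a genes encode P450 enzymes with broad drug substrates. Cyp3a13, the member of this family with the highest level per kilobase, was at 22.4, 45.4 and 30.5 CPM in NeuroD1 positive and 102, 59.7 and 222 CPM in NeuroD1 negative libraries (log2 fold change -1.97 ± 0.49, adjusted p = 0.0107). Cyp3a25 was at 1.84, 0.763 and 3.39 CPM in NeuroD1 positive and 21.3, 9.04 and 58.1 CPM in NeuroD1 negative libraries (-3.81 ± 0.80, adjusted p = 0.00322). In GluVenus mice Cyp3a25 was at 0.607, 2.07 and 1.85 CPM in positive and 9.95 and 12.3 CPM in negative libraries (-2.84 ± 0.83, adjusted p = 0.0468). In all of these pairs the positive libraries lay below the negative ones. The Cyp3a13 call was lost without NeuroD1_positive_6360 or NeuroD1_negative_6362 (adjusted p up to 0.122), and the Glu call of Cyp3a25 without any 1 of the 5 Glu libraries (up to 0.228). Cyp2b10, the classic target of the receptor CAR, also fell, at 2.94, 0.382 and 3.18 CPM in NeuroD1 positive and 29.6, 1.51 and 60.7 CPM in NeuroD1 negative libraries, but its groups overlapped (-3.76 ± 1.01, adjusted p = 0.0164). Its call was lost without NeuroD1_positive_6360, NeuroD1_positive_6361 or NeuroD1_negative_6362 (adjusted p up to 0.101).

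Several abundant P450 genes did not pass in any comparison. Cyp2c65, the Cyp2 member with the highest level per kilobase, was at 71.0 to 113 CPM in NeuroD1 positive and 50.2 to 95.6 CPM in NeuroD1 negative libraries, and at 47.5 to 93.7 CPM in Glu positive and 31.8 to 58.2 CPM in Glu negative libraries. Cyp51, the lanosterol demethylase of cholesterol synthesis and the first by level among the remaining Cyp families, was at 43.3 to 69.4 CPM in NeuroD1 positive and 48.9 to 91.8 CPM in NeuroD1 negative libraries, and at 44.8 to 64.5 CPM in Glu positive and 71.0 to 89.6 CPM in Glu negative libraries. The leading Cyp1 gene, Cyp1b1, averaged 0.802 CPM per kb over the groups, and Cyp1a1, the standard readout of the aryl hydrocarbon receptor, had 0 counts in NeuroD1 positive and 11 in NeuroD1 negative libraries and was not tested.

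**Figure D2:**
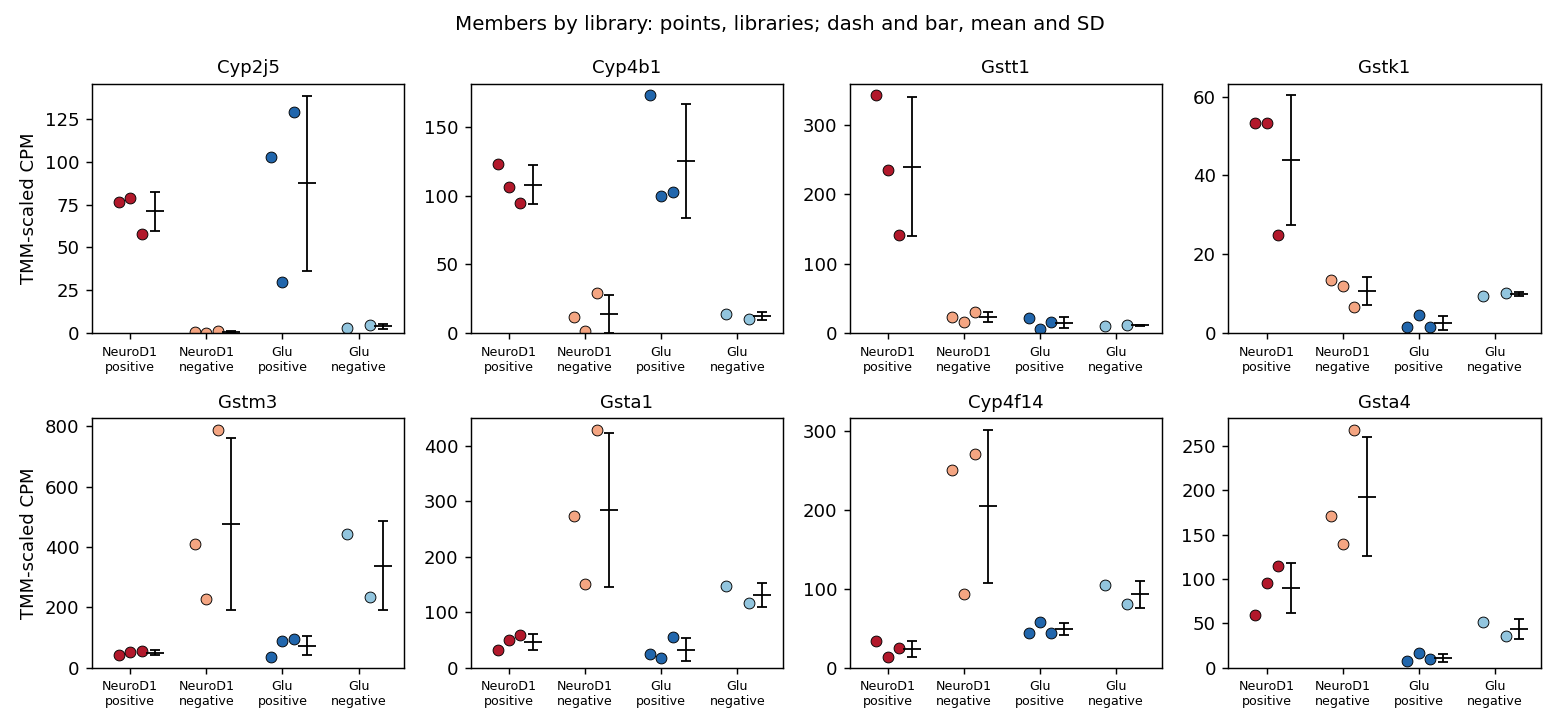
TMM-scaled CPM (y axis, linear) of 8 members in each library of the 4 groups, with the mean and SD beside the points. Cyp2j5 and Cyp4b1 are high in both positive populations, Gstt1 and Gstk1 in NeuroD1 positive cells, and Gstm3, Gsta1, Cyp4f14 and Gsta4 are highest in the NeuroD1 negative group by mean.

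Of 18 glutathione S-transferases tested, 2 rose in NeuroD1 positive cells (Gstt1 and Gstk1, 11.1%, against 6.57% of all genes) and 3 fell (Gsta1, Gstm1 and Gstm3, 16.7%, against 7.61%), while in Glu positive cells 4 fell (Gsta1, Gsta4, Gstm1 and Gstm3, 22.2%, against 2.41%). The theta class gene Gstt1, whose enzyme acts on small halogenated compounds, was at 343, 235 and 142 CPM in NeuroD1 positive libraries and at 23.4, 16.6 and 31.0 CPM in NeuroD1 negative libraries. It was at 21.5, 5.86 and 16.1 CPM in Glu positive and 10.8 and 11.8 CPM in Glu negative libraries. The NeuroD1 positive libraries thus stood apart from all the others, and the Glu groups overlapped. Gstt1 rose 10.1-fold in NeuroD1 positive over NeuroD1 negative cells (log2 fold change 3.34 ± 0.48, adjusted p = 9.92e-05) and was 16.4-fold higher in NeuroD1 positive than in Glu positive cells (4.04 ± 0.49, adjusted p = 5.27e-05). Both calls held under every alternative. The other theta members, Gstt2 and Gstt3, did not pass in any comparison. Gstt3 was at 8.81, 11.8 and 14.4 CPM in NeuroD1 positive and 33.3, 28.1 and 44.5 CPM in NeuroD1 negative libraries, without overlap and in the other direction from Gstt1 (-1.59 ± 0.53, adjusted p = 0.051), and Gstt2 gave 0.31 ± 0.68.

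Gstk1, a kappa class enzyme of mitochondria and peroxisomes, was at 53.3, 53.4 and 24.8 CPM in NeuroD1 positive and 13.4, 12.0 and 6.55 CPM in NeuroD1 negative libraries. It was at 1.52, 4.48 and 1.42 CPM in Glu positive and 9.51 and 10.2 CPM in Glu negative libraries. Its positive libraries were above the negative ones in the Neurod1-cre-eYFP strain and below them in the GluVenus strain. It rose in the NeuroD1 comparison (2.02 ± 0.58, adjusted p = 0.0248), did not pass in the Glu comparison (-2.04 ± 0.66, adjusted p = 0.0706), and was 18.1-fold higher in NeuroD1 positive than in Glu positive cells (4.18 ± 0.65, adjusted p = 0.000676). The NeuroD1 call was lost with library totals and without any 1 of NeuroD1_positive_6360, NeuroD1_positive_6361 and the 3 NeuroD1 negative libraries (adjusted p up to 0.115), and the call between positive cells held throughout.

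Of the mu class 2 of 7 members fell in each strain (28.6%). Of the alpha class 1 of 3 tested fell in NeuroD1 positive (33.3%) and 2 of 3 in Glu positive cells (66.7%). Of all genes tested 7.61% fell in the NeuroD1 and 2.41% in the Glu comparison. The mu members that did not pass in the NeuroD1 comparison include Gstm7 (0.63 ± 0.60), Gstm5 (0.27 ± 0.62) and Gstm6 (-0.17 ± 0.60). Gstm3, the most abundant mu class gene, was at 41.9, 52.3 and 57.0 CPM in NeuroD1 positive and 411, 228 and 788 CPM in NeuroD1 negative libraries, and at 37.3, 87.8 and 94.7 CPM in Glu positive and 442 and 235 CPM in Glu negative libraries. It fell in both strains, with log2 fold changes of -3.24 ± 0.47 (adjusted p = 0.000108) and -2.20 ± 0.47 (adjusted p = 0.00904). Gsta1 was at 31.6, 49.6 and 59.8 CPM in NeuroD1 positive and 273, 152 and 429 CPM in NeuroD1 negative libraries, and at 24.6, 16.9 and 56.0 CPM in Glu positive and 147 and 116 CPM in Glu negative libraries. It fell by 2.60 ± 0.47 (adjusted p = 0.000872) and 2.00 ± 0.49 (adjusted p = 0.0198) on the log2 scale. Gstm1 showed the smallest of these drops, at 66.1, 60.3 and 77.1 CPM in NeuroD1 positive and 125, 126 and 214 CPM in NeuroD1 negative libraries (-1.19 ± 0.36, adjusted p = 0.0315), and at 35.8, 46.9 and 61.7 CPM in Glu positive and 148 and 92.2 CPM in Glu negative libraries (-1.32 ± 0.39, adjusted p = 0.0488). The groups did not overlap for any of the 3 genes. In the NeuroD1 comparison the calls of Gstm3 and Gsta1 held under every alternative, while that of Gstm1 was lost without NeuroD1_negative_6362 or any 1 of the NeuroD1 positive libraries (adjusted p up to 0.18). In the Glu comparison all 3 calls were lost without Glu_negative_5254 (adjusted p up to 0.428). Those of Gsta1 and Gstm1 were also lost without Glu_negative_4665 or Glu_positive_5160, and that of Gstm1 without Glu_positive_5254. By sequence 90.5% of the 50-base stretches of Gsta1 and 28.8% of those of Gstm3 occur in another gene, so part of these counts may belong to a near copy.

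Gsta4, which detoxifies the lipid peroxidation product hydroxynonenal, differed between strains as well as between sorted populations. It was at 59.1, 95 and 115 CPM in NeuroD1 positive, 171, 140 and 268 CPM in NeuroD1 negative, 7.58, 16.2 and 9.68 in Glu positive and 51.3 and 35.6 CPM in Glu negative libraries. The 4 groups did not overlap. It fell in Glu positive against Glu negative cells (-1.97 ± 0.44, adjusted p = 0.0113), a call lost without Glu_negative_5254, and did not pass in the NeuroD1 comparison (-1.10 ± 0.39, adjusted p = 0.0656). Gsto1, an omega class enzyme that reduces dehydroascorbate, and Gstp1 of the pi class did not pass in any comparison, with 105 to 136 and 15.8 to 18.0 CPM in NeuroD1 positive and 85.9 to 109 and 34.5 to 38.7 CPM in NeuroD1 negative libraries.

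Summed over members, the theta class reached 259 ± 101 CPM in NeuroD1 positive and 64.5 ± 16.8 CPM in NeuroD1 negative libraries (SD, n = 3 each). The mu class summed to 187 ± 18.4 CPM in NeuroD1 positive and 701 ± 348 CPM in NeuroD1 negative libraries, and the alpha class to 139 ± 43.2 and 483 ± 207 CPM. Within the mu class, Gstm3 made up 24.9% to 30.1% of the summed CPM in NeuroD1 positive and 54.3% to 72.2% in NeuroD1 negative libraries, with 33.0% to 51.4% in Glu positive against 63.4% to 68.7% in Glu negative libraries. These sums are descriptions, with no test.

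**Figure D3:**
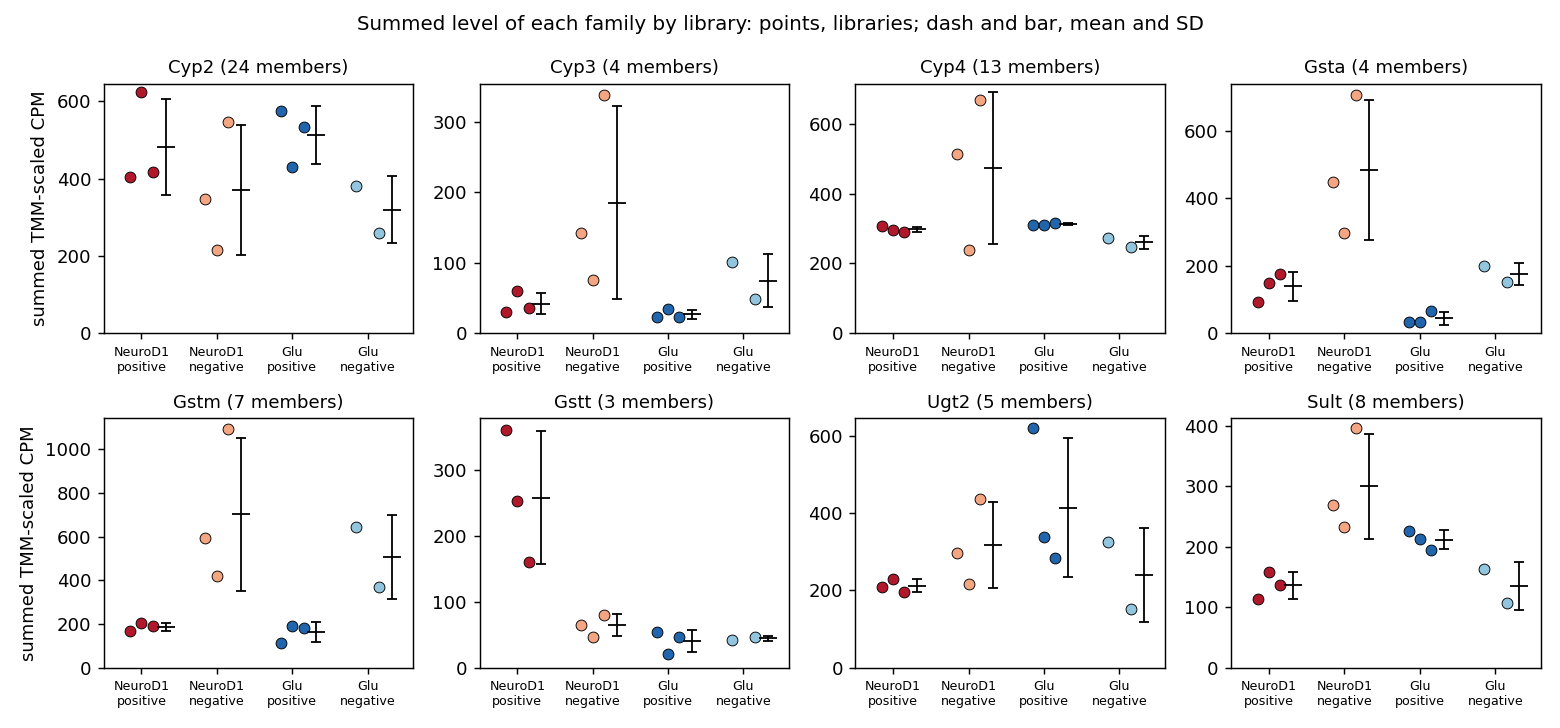
Summed TMM-scaled CPM (y axis, linear from 0) of 8 families in each library, with the mean and SD beside the points. The Gstt sum is highest in the 3 NeuroD1 positive libraries (160 to 362 CPM), and the Gstm and Gsta sums are higher in negative than in positive libraries of both strains.

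The Ugt1 locus on chromosome 1 (chr1:88070800-88220002, plus strand, over the 8 members) has alternative first exons spliced to shared last exons, each first exon with its own promoter and substrate range. The summed level of the 8 Ugt1 members was close in all groups but Glu negative, at 154 ± 27.5 CPM in NeuroD1 positive, 160 ± 7.39 in NeuroD1 negative and 148 ± 12.0 CPM in Glu positive libraries (SD, n = 3 each). The Glu negative libraries, at 125 and 106 CPM, lay below all others. The composition of the sum differed more. Ugt1a6a, which conjugates planar phenols and whose human counterpart glucuronidates serotonin, held 82.4%, 77.7% and 82.1% of the sum in NeuroD1 positive and 8.17%, 17.6% and 15.8% in NeuroD1 negative libraries. It held 31.2% to 48.2% in Glu positive and 19.9% and 31.6% in Glu negative libraries. These shares are not scaled by exon length, which is 4312 bases for Ugt1a6a and 4219 for Ugt1a7c, against 2190 to 2382 for the other members. Per kilobase, Ugt1a6a averaged 28.9 CPM in NeuroD1 positive cells, where Ugt1a9 came next at 4.01. In NeuroD1 negative cells Ugt1a6a averaged 5.08 CPM per kb, and Ugt1a5 led at 15.8.

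As a level, Ugt1a6a was at 153, 106 and 114 CPM in NeuroD1 positive and 13.7, 27.1 and 24.9 CPM in NeuroD1 negative libraries, and rose 5.74-fold (log2 fold change 2.52 ± 0.41, adjusted p = 0.000375) under every alternative. In Glu positive cells it was at 53.7, 45.5 and 66.1 CPM and in Glu negative cells at 39.4 and 21.1 CPM (0.87 ± 0.44, adjusted p = 0.246). Ugt1a9, which conjugates phenols, was at 15.8, 6.10 and 4.45 CPM in NeuroD1 positive libraries and at 0 in every NeuroD1 negative and Glu positive library. With a floor of 3 counts over the group, that is at least 26.4-fold higher than in NeuroD1 negative (adjusted p = 0.0112) and at least 35.0-fold higher than in Glu positive cells (adjusted p = 0.0144). The first of these calls was lost with DESeq2 and without NeuroD1_negative_6360, and the second with DESeq2 and without NeuroD1_positive_6360. Ugt1a9 had enough counts for the test only through its NeuroD1 positive libraries, the group where it was high.

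The remaining Ugt1 members that passed fell. Ugt1a1, the bilirubin-conjugating enzyme, was at 5.14, 1.14 and 8.48 CPM in NeuroD1 positive and 24.1, 22.6 and 36.7 CPM in NeuroD1 negative libraries (-2.45 ± 0.62, adjusted p = 0.0121). Against Glu positive libraries, at 21.5, 44.8 and 35.2 CPM, it was lower in NeuroD1 positive cells too (-2.74 ± 0.63, adjusted p = 0.0113). Ugt1a7c was at 6.61, 18.3 and 10.4 CPM in NeuroD1 positive, 47.8, 19.1 and 51.1 in NeuroD1 negative and 81.6, 33.8 and 27.3 CPM in Glu positive libraries, and fell in the NeuroD1 comparison (-1.75 ± 0.55, adjusted p = 0.039) and against Glu positive cells (-2.01 ± 0.55, adjusted p = 0.0293). Ugt1a2 had 3 counts over the NeuroD1 positive libraries, against 54.3, 28.1 and 17.9 CPM in NeuroD1 negative libraries. This is a ratio of 0.00733 with an exact (Clopper-Pearson) 95% interval of 0.00151 to 0.0216 that covers counting error only. Ugt1a2 had enough counts for the test only through its NeuroD1 negative libraries, the group where it was high. Ugt1a5 fell as well (-3.46 ± 0.73, adjusted p = 0.00314). Of these, the Ugt1a1 call against NeuroD1 negative cells was lost without NeuroD1_positive_6361 or NeuroD1_negative_6362 (adjusted p up to 0.0521) and that against Glu positive cells without NeuroD1_positive_6360 (0.0506). The Ugt1a7c call was lost in the NeuroD1 comparison without NeuroD1_positive_6360 or NeuroD1_positive_6362 or NeuroD1_negative_6360 or NeuroD1_negative_6362 (up to 0.155), and between positive cells without NeuroD1_positive_6360 or NeuroD1_positive_6362 or Glu_positive_5254 (up to 0.128). The promoter stretches printed above for Ugt1a9 and Ugt1a1 both hold the HNF1 letters, and those for Ugt1a6a and Ugt1a2 do not hold them.

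Because the last exons are shared, 52.1% to 64.0% of the 50-base stretches of the 6 Ugt1 members that passed occur in another gene, and reads there cannot be assigned to a first exon. All 8 Ugt1 members had values that were not whole numbers. Such values were found in 356 to 488 genes of each NeuroD1 column and in at most 2 genes of each Glu column, so shared reads may have been divided differently between the strains. The positive against negative contrast of the Neurod1-cre-eYFP strain lies within columns that all hold such values, although NeuroD1_negative_6360 resembles the Glu columns in its mitochondrial ribosomal genes.

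**Figure D4:**
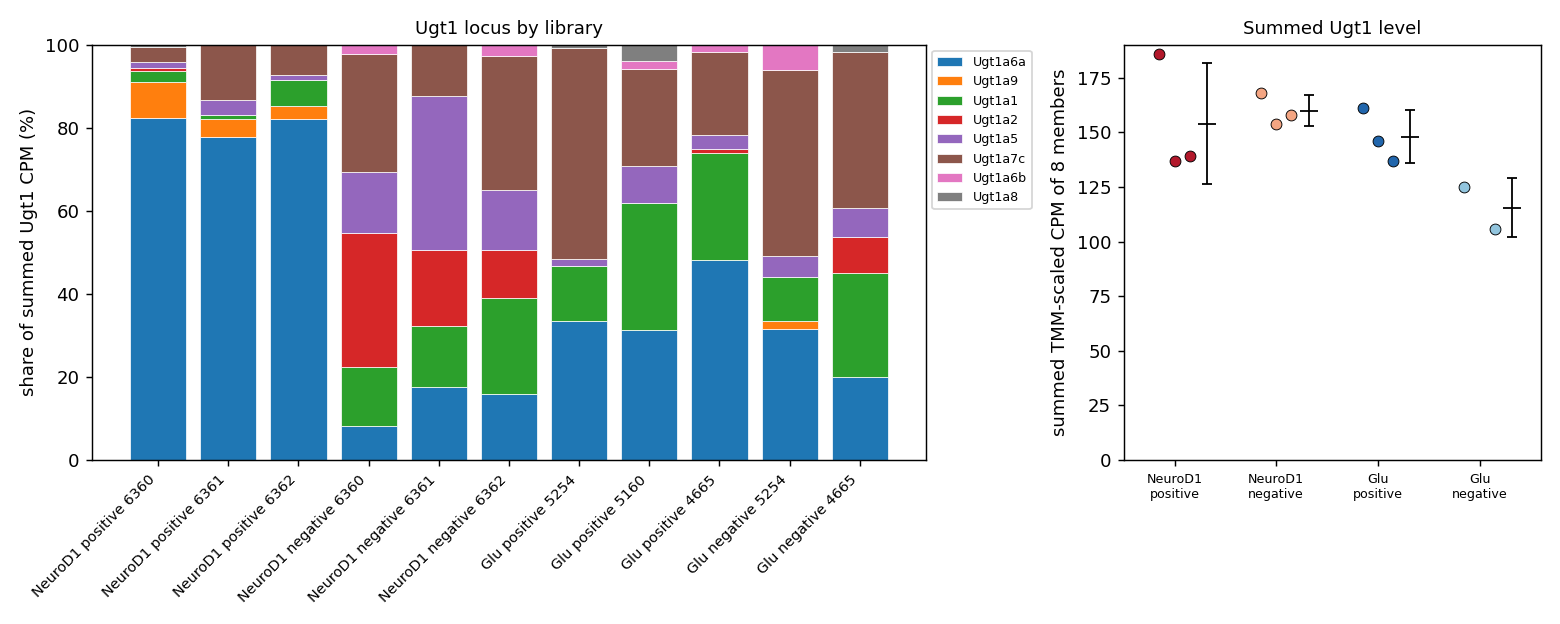
Share of the summed Ugt1 CPM held by each of the 8 Ugt1 members in each library (left, in percent) and the summed TMM-scaled CPM by group with mean and SD (right, linear from 0). Ugt1a6a holds 77.7% to 82.4% in NeuroD1 positive and 8.17% to 17.6% in NeuroD1 negative libraries, while the sums are 137 to 186 CPM and 154 to 168 CPM.

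Outside the Ugt1 locus, Ugt8a, the ceramide galactosyltransferase that makes a lipid and clears no drug, was at 9.18, 18.3 and 10.8 CPM in NeuroD1 positive and 2.11, 3.51 and 1.75 CPM in NeuroD1 negative libraries (2.38 ± 0.75, adjusted p = 0.0402). It did not pass in the Glu comparison, although its positive libraries (2.43, 5.17 and 4.27 CPM) lay above the negative ones (0.884 and 0.56 CPM). The NeuroD1 call was lost with library totals, with no filter on low counts and without any 1 of the 6 NeuroD1 libraries (adjusted p up to 0.153). Ugt2a3 was at 0.734, 1.53 and 9.11 CPM in NeuroD1 positive and 24.7, 22.1 and 49.8 CPM in NeuroD1 negative libraries (-3.00 ± 0.84, adjusted p = 0.021), a call lost without NeuroD1_positive_6360, NeuroD1_positive_6361 or NeuroD1_negative_6362 (up to 0.0932). Ugt2b5 fell too (-4.85 ± 1.02, adjusted p = 0.00318). Ugt2b34, the most abundant Ugt2 gene, was at 179 to 228 CPM in NeuroD1 positive and 185 to 367 CPM in NeuroD1 negative libraries. It was at 272 to 585 CPM in Glu positive and 137 and 287 CPM in Glu negative libraries, and did not pass in any comparison.

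Of the sulfotransferases, 3 of 7 tested fell in NeuroD1 positive cells (42.9%, against 7.61% of all genes) and 1 of 7 rose in Glu positive cells (14.3%, against 4.22%). Sult1b1, which sulfates thyroid hormones, was at 18.4, 35.9 and 25.2 CPM in NeuroD1 positive and 148, 137 and 206 CPM in NeuroD1 negative libraries (-2.63 ± 0.48, adjusted p = 0.0011), and passed under every alternative. Sult6b2 was at 3.67, 2.29 and 1.06 CPM in NeuroD1 positive and 30.7, 39.2 and 61.1 CPM in NeuroD1 negative libraries (-4.24 ± 0.89, adjusted p = 0.00298), again under every alternative. Sult2b1, which sulfates cholesterol, was at 2.57, 9.92 and 8.26 CPM in NeuroD1 positive and 34.5, 16.6 and 36.7 CPM in NeuroD1 negative libraries (-2.07 ± 0.68, adjusted p = 0.0483), a call lost without any 1 of the 6 libraries (up to 0.173).

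Sult1d1, which sulfates catecholamines in the mouse and leads its family by level per kilobase, was at 179, 94.7 and 132 CPM in Glu positive and 48.0 and 28.6 CPM in Glu negative libraries (1.82 ± 0.46, adjusted p = 0.0224). This call was lost with library totals and without either Glu negative library (adjusted p up to 0.276). Sult1d1 was at 73.8, 88.9 and 89.9 CPM in NeuroD1 positive and 43.7, 29.6 and 71.6 CPM in NeuroD1 negative libraries, also without overlap, but did not pass there (0.80 ± 0.39, adjusted p = 0.197).

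Between the positive populations, 6 of 71 members were higher in NeuroD1 positive than in Glu positive cells (8.45%, against 3.18% of all genes) and 3 were lower (4.23%, against 4.95%, or 8.13% of all genes in either direction), with a median log2 fold change of -0.08 against -0.14. The members' median turned to between 0.08 and 0.14 without any 1 of the Glu positive libraries. Between these populations 2 of 7 enteroendocrine markers were higher in NeuroD1 positive cells, and all 5 goblet and 5 of 7 immune markers were lower. Their part in these differences was not tested. Library totals gave 6 higher and 5 lower. The lower count was 1 without NeuroD1_positive_6360 and 5 without Glu_positive_4665. Besides Gstt1, Gstk1 and Ugt1a9, given above, the higher members were Gsta4, Cyp2f2 and Sult4a1. Gsta4 was 8.09-fold higher (3.02 ± 0.42, adjusted p = 0.000232) under every alternative, and Cyp2f2 gave 5.16 ± 1.23 (adjusted p = 0.0139), again with most of its counts in NeuroD1_positive_6361. Sult4a1, a sulfotransferase known from brain, was at 5.14, 6.49 and 1.91 CPM in NeuroD1 positive and had 1 count over the Glu positive libraries, a ratio of 52.6 with an exact 95% interval of 8.91 to 2127 for counting error. Its call (edgeR, adjusted p = 0.0224) was lost without Glu_positive_5254. Without NeuroD1_positive_6360 or NeuroD1_positive_6361 Sult4a1 had too few counts to be tested. Like Ugt1a9 above, Cyp2f2 and Sult4a1 had enough counts for the test only through their NeuroD1 positive libraries, the group where they were high.

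The lower members were Cyp2c55, Ugt1a1 and Ugt1a7c. Cyp2c55, a P450 that oxidises arachidonic acid and is known from mouse colon, was at 4.04, 9.54 and 22.9 CPM in NeuroD1 positive and 153, 157 and 46.6 CPM in Glu positive libraries, without overlap (-3.25 ± 0.65, adjusted p = 0.00471, under every alternative). It was at 36.5, 13.1 and 66.8 CPM in NeuroD1 negative and 101 and 65.5 CPM in Glu negative libraries.

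Between the negative populations 1 of 71 members, Gsta4, was higher in NeuroD1 negative than in Glu negative cells (1.41%, against 0.363% of all genes; 2.15 ± 0.47, adjusted p = 0.042). The call was lost with library totals and without any 1 of the 5 libraries (adjusted p up to 0.591). By edgeR none was lower (against 0.126% of all genes, or 0.488% in either direction), with 5 lower at an unadjusted p under 0.05 and none by DESeq2. At an unadjusted p under 0.05 in either direction (edgeR) there were 16 of 71 members, against 1296 of all 14332 genes. The difference in Gsta4 between strains was thus seen in positive cells (8.09-fold) and in negative cells (4.45-fold).

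The interaction asked whether the positive over negative fold change differed between strains. By edgeR no member passed in either direction, against 0.0907% of all genes higher, 0.0209% lower and 0.112% in either direction. At an unadjusted p under 0.05 (edgeR) there were 6 members higher and 13 lower. In either direction that was 19 of 71 members, against 1558 of all 14332 genes. Gstk1 had a log2 difference of 4.06 ± 0.88 (NeuroD1 minus Glu, adjusted p = 0.0852), Gstt1 of 2.97 ± 0.67 (adjusted p = 0.0921) and Cyp2j5 of 2.12 ± 0.92 (adjusted p = 0.412). DESeq2 called Gstk1 and Gstt1 higher (adjusted p of 0.00141 and 0.0103) and Ugt1a1 and Ugt1a5 lower (0.0164 and 0.0405). With no filter on low counts edgeR called Gstt1 (adjusted p = 0.00122), Gstk1 (0.00433) and Ugt1a9 (4.73e-05) higher and Cyp4f14, Cyp2b10, Sult6b2 and Ugt1a1 lower (0.0371 to 0.0448). In the filtered edgeR fit, Gstt1 also passed without Glu_positive_5254 (3.32, adjusted p = 0.0256) and Gstk1 without Glu_positive_5160 (4.74, adjusted p = 0.0275).

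Enzymes and proteins that serve these families were read from a list of 48 genes, all tested. In the NeuroD1 comparison 5 rose and 14 fell, and in the Glu comparison 3 rose and 4 fell. Of all genes 6.57% rose and 7.61% fell in the NeuroD1 comparison, and 4.22% rose and 2.41% fell in the Glu comparison. The median log2 fold change of the list was -0.71 in the NeuroD1 comparison, against 0.02 over all genes, and 0.03 in the Glu comparison, against 0.12. In cofactor supply, Papss1 and Papss2, the synthases of the sulfate donor, moved apart in the NeuroD1 comparison. Papss1 was at 111, 102 and 111 CPM in NeuroD1 positive and 27.5, 19.1 and 29.2 CPM in NeuroD1 negative libraries (2.09 ± 0.39, adjusted p = 0.00122). Papss2 was at 148, 247 and 204 CPM in NeuroD1 positive and 785, 685 and 1586 CPM in NeuroD1 negative libraries (-2.35 ± 0.40, adjusted p = 0.000538). Neither pair overlapped. In GluVenus mice Papss2 was at 428, 285 and 218 CPM in positive and 449 and 222 CPM in negative libraries (-0.11 ± 0.43, adjusted p = 0.91), while Papss1 rose there (1.68 ± 0.44, adjusted p = 0.0291), a call lost with library totals and without either Glu negative library (up to 0.288).

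Gclm, the modifier subunit of the first enzyme of glutathione synthesis, rose in both strains. It was at 103, 132 and 117 CPM in NeuroD1 positive and 44.8, 29.6 and 58.1 CPM in NeuroD1 negative libraries (1.41 ± 0.44, adjusted p = 0.0382), and at 324, 81.0 and 130 CPM in Glu positive and 31.2 and 24.2 CPM in Glu negative libraries (2.68 ± 0.54, adjusted p = 0.0054). The NeuroD1 call was lost with RLE size factors, with library totals and without any 1 of the 6 libraries (up to 0.144), and the Glu call without either Glu negative library (up to 0.111). Ugdh, which makes the glucuronic acid donor, fell in NeuroD1 positive cells (-1.56 ± 0.48, adjusted p = 0.035), again lost without any 1 of the 6 libraries (up to 0.146).

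Of other phase I enzymes and pumps, the retinal dehydrogenase Aldh1a1 fell in both strains. It was at 27.5, 20.6 and 36.7 CPM in NeuroD1 positive and 216, 163 and 324 CPM in NeuroD1 negative libraries (-3.05 ± 0.40, adjusted p = 4.45e-05), and at 25.5, 44.8 and 52.0 CPM in Glu positive and 144 and 118 CPM in Glu negative libraries (-1.68 ± 0.41, adjusted p = 0.0191). The conjugate pump Abcc2 fell in both strains as well. It was at 22.8, 19.1 and 27.3 CPM in NeuroD1 positive and 100, 100 and 220 CPM in NeuroD1 negative libraries. Its log2 fold change there was -2.6 ± 0.4 (edgeR, adjusted p = 0.000204). In GluVenus mice Abcc2 was at 42.5, 28.6 and 37.5 CPM in positive and 103 and 102 CPM in negative libraries (-1.50 ± 0.41, adjusted p = 0.035). Both Glu calls were lost without either Glu negative library (up to 0.198), and that of Abcc2 also without Glu_positive_5160 or Glu_positive_4665. The dioxin receptor Ahr was at 7.34, 13.0 and 9.54 CPM in NeuroD1 positive and 89.2, 53.7 and 21.2 CPM in Glu positive libraries (-2.45 ± 0.55, adjusted p = 0.0105), a call lost without NeuroD1_positive_6360 (0.0594). Ahr fell in the NeuroD1 comparison too, against 68.4, 34.1 and 35.4 CPM in NeuroD1 negative libraries (-2.21 ± 0.55, edgeR, adjusted p = 0.0104). The NeuroD1 calls of Abcc2 and Ahr were not followed under the alternatives. Between the positive populations 1 gene of the list was higher, Gstz1 (1.89 ± 0.49), and 6 were lower, among them Ces2e (-1.85 ± 0.44) and Abcb1a (-1.55 ± 0.40), against 3.18% and 4.95% of all genes. The calls of these 3 genes were each lost in 2 or more of the fits that left out 1 library, and that of Gstz1 also with library totals.

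Liver RNA would carry many of these enzymes, so hepatocyte markers were read beside them. Cyp7a1, the rate-limiting enzyme of bile acid synthesis in hepatocytes, was at 0 in all libraries except Glu_positive_4665, where it was at 0.142 CPM. Alb was at 36.4, 17.2 and 26.3 CPM in NeuroD1 positive libraries and at 1.38 CPM or less in every other library, and Serpina1c at 26.8, 56.8 and 26.3 CPM in NeuroD1 positive libraries and 4.42 CPM or less in the others. Ttr was at 156, 186 and 111 CPM in NeuroD1 positive and 21.9, 23.1 and 19.2 CPM in NeuroD1 negative libraries. In GluVenus mice Ttr was at 68.3, 54.1 and 68.6 CPM in positive and 6.41 and 5.6 CPM in negative libraries. By mean, Cps1 and Apob went the other way in the NeuroD1 comparison (360 against 655 CPM and 932 against 2137 CPM). Of the 6 listed markers 5 were tested. In the NeuroD1 comparison 3 rose and 0 fell, and in the Glu comparison 1 rose and 0 fell. Taking NeuroD1 positive over Glu positive libraries, 3 markers passed with a rise and 1 with a drop. The whole list summed to 1418 to 1670 CPM in NeuroD1 positive and 1412 to 4730 CPM in NeuroD1 negative libraries, and to 1691 to 2211 CPM in Glu positive and 1086 and 1503 CPM in Glu negative libraries, most of it from Cps1 and Apob, which the intestine also expresses. The part of these markers in the rise of Gstt1, Gstk1 or Cyp2f2 was not tested.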

How the data were processed

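RNA from sorted cells of mouse duodenal epithelium was extracted with a column kit and 2 ng went into Ovation RNA-seq v2 libraries, an amplifying kit, per the labels' protocols. Build GRCm38 and the tools TopHat2 2.1.0, Cufflinks 2.2.1 and CASAVA appear in the submitters' processing notes. Which annotation release, counting tool and strand setting were used was not given in the sources used here. Values came as 1 table the authors deposited of estimated counts per gene and library, with values that are not whole numbers in 848 genes, and these expected counts were rounded to whole numbers. Overlapping genes, antisense genes such as Cyp4x1os and near copies may share reads.

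Symbols, exon lengths and coordinates came from GENCODE vM21 (GRCm38), and promoters from RefSeq. A quasi-likelihood model was fitted with edgeR 4.0.16 (R 4.3.3) after filterByExpr and TMM scaling, with 4 group means over 11 libraries. This left 14332 genes, over which p-values were adjusted (Benjamini-Hochberg, threshold 0.05). In all, 5 contrasts were read: positive against negative in each strain, both positives, both negatives, and the interaction. For a group at 0 the floor was 3 counts over its libraries. Intervals and floors cover counting error only, since amplified reads are not independent molecules. Replicates differed by 17.0 to 153 in chi-square per degree of freedom, so each was kept as its own sample. Before use the model was tested on simulated data in which few genes were changed. In the comparisons of groups it recovered 0% to 2.17% of 2-fold, 17.8% to 31.9% of 4-fold, 42.9% to 70.8% of 8-fold and 67.4% to 91.5% of 16-fold changes. In the interaction it recovered 0%, 4.0%, 31.2% and 46.0% of 2-, 4-, 8- and 16-fold changes. False calls were 2.15% to 6.98% of calls. A gene that did not pass may thus still differ.

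The named genes are Cyp2j5, then up to 12 members each way in each positive against negative comparison and up to 8 each way in the others, by average level among those that passed, the leading member of each family by CPM per kb, and up to 4 passing genes of the 48-gene list in each comparison. In the NeuroD1 comparison Cyp3a25, Ugt1a2, Ugt1a5, Ugt2b5, Cyp2j6, Papss1, Gsta4, Gstm5, Gstm6, Gstm7, Gstt2, Gstt3 and Sult1d1, in the Glu comparison Papss2, Gstk1, Gstt1, Cyp2j9, Cyp4f14, Sult1d1, Ugt1a6a and Ugt8a where they did not pass, and in the interaction Gstk1, Gstt1, Ugt1a1 and Ugt1a5, were named after their values were seen. Abcc2 and Ahr in the NeuroD1 comparison were also named after their values were seen. The members and lists were chosen with earlier results of these data known. Alternatives were RLE size factors, library totals, no filter on low counts, DESeq2 1.42.0, a replicate block, leaving out mt-Rnr1 and mt-Rnr2, and leaving out each library in turn.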

Additional observations from a re-analysis of the deposited data

Results flagged for a closer look

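Gstk1 was looked at again because its libraries moved in opposite directions in the strains. All 3 NeuroD1 positive libraries (53.3, 53.4 and 24.8 CPM) were above all 3 NeuroD1 negative libraries (13.4, 12.0 and 6.55 CPM), while all 3 Glu positive libraries (1.52, 4.48 and 1.42 CPM) were below both Glu negative libraries (9.51 and 10.2 CPM). It was the only 1 of 71 tested members with this pattern. The share of all tested genes with this pattern is not known here, so the count does not show how unusual it is. The log2 difference between strains was 4.06 ± 0.88 (NeuroD1 minus Glu) and did not pass in edgeR (adjusted p = 0.0852). Over the alternatives it ranged between 3.74 and 4.75, with adjusted p between 0.00141 (DESeq2) and 0.236. The part of strain, reporter and preparation in this difference cannot be told apart.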

How the results depend on the processing

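Named genes gave 68 pairs with a comparison, and 650 of their 791 alternative values kept their direction and their side of the threshold, 127 kept the direction but no longer passed (107 of them on leaving out a library), 13 newly passed and 1 turned sign. That value was the log2 fold change of Cyp2j5 between NeuroD1 positive and Glu positive cells, which ranged between -0.72 and 0.10 on leaving out each library and was 0.10 without Glu_positive_4665. Members counted as higher in the Glu comparison were 5 with the replicate block, against 3 without it, and lower between NeuroD1 positive and Glu positive cells 5 with library totals and 6 with no filter, against 3. Between NeuroD1 negative and Glu negative cells the higher count of 1 was 0 with library totals, 2 with no filter and 2 with DESeq2. In the interaction 3 were higher and 4 lower with no filter, and 2 higher and 2 lower with DESeq2, against 0 and 0. The cause of these shifts was not tested. Leaving out each library in turn gave 4 to 8 higher and 9 to 18 lower in the NeuroD1 comparison, 1 to 5 and 0 to 4 in the Glu comparison, 4 to 7 and 1 to 5 between the positive populations, 0 and 0 between the negative populations, and 0 to 1 and 0 in the interaction. Library totals, which count the mitochondrial ribosomal genes, moved the median over all genes on the log2 scale to -0.28 from 0.02 in the NeuroD1 comparison, to -0.19 from 0.12 in the Glu comparison, to -0.51 from -0.14 between the positives and to -0.39 from -0.01 between the negatives.

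Positive and negative libraries share label numbers. Deviations of same-numbered libraries from their group means correlated at 0.05, 0.01 and 0.01 in the Neurod1-cre-eYFP strain and at 0.04 and 0.04 in the GluVenus strain. Such values cannot show whether same-numbered libraries are paired, because each group has few libraries and the deviations of the Glu negative libraries mirror each other. The main model left the numbers out. In the NeuroD1 comparison the replicate block gave 6 higher and 16 lower, against 9 and 16. It ended the NeuroD1 calls of Cyp2j9, Ugt8a, Cyp2f2, Ugt1a7c and Sult2b1 and the Glu calls of Gstm1 and Abcc2, and no other call among the 68 pairs (edgeR). Few counts limit the low members: 20 of 91 were not tested, and for members with few counts in a group only a bound or a wide interval could be given.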
